A study of Mus musculus with 2208 samples.

Results

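Among the wells of FACS-sorted hippocampal microglia from 25 mice, 19 first wells were rich in genes. Each was the first well of a mouse (lowest row letter, then lowest number) with over 8000 genes at FPKM of 1 or more, where FPKM is fragments per kilobase of transcript, scaled to the mapped fragments of the well. Of the 25 first wells 19 met this limit, out of 2208 wells in all. The wells were thus chosen by their number of genes, which is given here only as a description. The lowest well inside the limit held 8442 genes and the highest first well outside it held 4969 genes, while the median of the other wells with at least 1000 genes was 2359 genes (2003 wells). Among those other wells, 1 of CKp25 0 weeks mouse 2 held 11886 genes and 1 of CK 6 weeks mouse 2 held 7248 genes. The submitters state 2183 libraries, which is the number of wells without the 25 first wells. Whether the first wells hold 1 cell is not stated, and if they hold several, more cells of a kind and more RNA per cell cannot be told apart in them.

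The mice were of the CKp25 and CK strains, and the series follows microglia through neurodegeneration. CKp25 mice carry an inducible transgene for p25, a cleaved form of a Cdk5 activator, which is switched on in forebrain neurons by a Camk2a-driven transactivator. CK littermates lack p25. The 8 induced wells came from 3 CKp25 mice at 1 week after induction (3 months and 1 week old), 2 at 2 weeks (3 months and 2 weeks old) and 3 at 6 weeks (4 months and 2 weeks old). The 11 control wells came from CKp25 mice at 0 weeks (2 mice, 3 months old, before induction) and from CK mice at 0 weeks (3 mice), 1 week (2 mice), 2 weeks (2 mice) and 6 weeks (2 mice), of the same ages. All cells were sorted for CD11b and CD45, surface markers of microglia that other myeloid cells carry as well. Each well was the only one of its mouse in the comparison. The spread between wells thus holds differences between mice and between wells of a mouse, which cannot be told apart.

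Microglia are the resident macrophages of the brain. In the healthy brain they express a homeostatic set of genes, such as the purinergic receptor gene P2ry12 and the fractalkine receptor gene Cx3cr1. Near dying neurons they can divide, secrete chemokines and cytokines, take up lipid and debris, and respond to interferons, secreted proteins that act through STAT transcription factors to switch on antiviral genes. In profiles of single cells many such genes are seldom detected.

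The induced wells held 8442 to 10740 genes (median 10077) and the control wells 9829 to 12232 genes (median 10296). The depth of sequencing per well is unknown from FPKM. A relative depth was read from the most frequent ratio between the low FPKM values of a well and those of 1 control well, set to 1. It ran from 0.1 to 3.04 in induced wells (median 1.40) and from 0.128 to 2.32 in control wells (median 1.30). The wells of CKp25 6 weeks mouse 3 (0.1) and CKp25 0 weeks mouse 3 (0.128) were the shallowest. The well of CKp25 0 weeks mouse 2 stood apart with 12232 genes. Expression of 2 wells correlated with a median Spearman rho of 0.860 among induced wells, 0.899 among control wells and 0.846 between induced and control wells, across genes, which are not independent replicates. No gene differed between the 5 control groups in limma's F test (0 of 11439 at an adjusted p under 0.05, and 427 genes or 3.73% at an unadjusted p under 0.05). CKp25 wells at 0 weeks compared with CK wells gave 0 called genes as well, with 902 (7.89%) at an unadjusted p under 0.05.

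**Figure D1:**
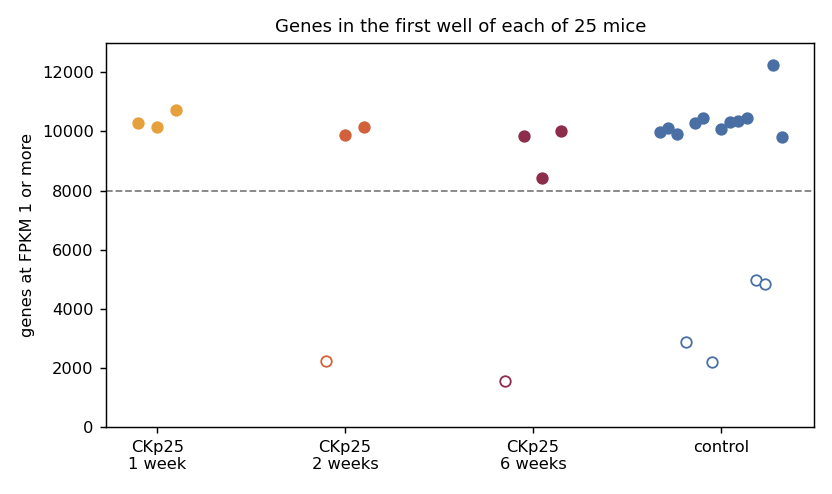
Number of genes at FPKM of 1 or more in the first well of each of the 25 mice, by group. Filled points are the 19 wells over the limit of 8000 genes (dashed line) and open points the 6 first wells below it, which held at most 4969 genes.

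Cdk5r1, the gene from which p25 derives, gives a check on the labels only to the extent that sorted cells carry RNA from neurons. It was at 1.24 to 7.95 FPKM in induced wells (median 1.74) and at 2.66 to 7.43 FPKM in control wells (median 5.09), and was lower in induced wells (log2 difference -0.86 ± 0.25 SE, limma adjusted p = 0.0253). The p25 transgene is active in neurons and not in microglia, so these values say nothing on induction. Without 1 well at a time the adjusted p ranged from 0.00122 to 0.0597.

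Induced and control wells differed at many genes. Of 11439 genes that reached FPKM 1 in 4 or more of the 19 wells, 548 (4.79%) were higher and 1015 (8.87%) were lower in induced wells (limma on log2(FPKM + 1), 2-sided, Benjamini-Hochberg adjusted p under 0.05 over all tested genes). The median difference of all tested genes was -0.22, so lower values have to be read against that shift. It depended on the scaling. After quantile normalization the median was -0.05 and 752 genes were higher and 739 lower, and after rescaling without Rn45s and the small RNA genes the median was -0.46 and 476 genes were higher and 2802 lower. Rn45s, a ribosomal RNA gene, was listed at 0 in 5 of 8 induced and 3 of 11 control wells, and its part in the first split was not tested. Without CKp25 1 week mouse 3, 1701 genes were lower. The number of higher genes stayed between 384 and 687 with any 1 well left out.

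Genes that single wells rarely show made up 2168 of the 11439 tested genes. They were defined as genes that reached FPKM 1 in under 5% of the other wells, averaged over mice, and their median share there was 2.65%, against 18.2% for the other tested genes. The gene-rich wells held them often. The median rarely detected gene reached FPKM 1 in 9 of the 19 wells, while 1004 reached it in 10 wells or more and 26 in every well. A further 12350 rarely detected genes of the table did not pass the filter on low values and were not tested. Of the 2168 tested, 117 (5.40%) were higher and 77 (3.55%) lower in induced wells, close to the shares of all tested genes for the higher ones and below it for the lower ones. Without CKp25 2 weeks mouse 3, 66 rarely detected genes were higher.

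Of the rarely detected genes that were higher, leaving out predicted genes without a full name, the 12 with the largest differences were Cxcl10, H2-Q8, Cxcl13, Lgals3, Fabp3, Cd69, Actr3b, Apoc1, Ass1, Crip1, Plac8 and Ccnb2. Cxcl10 encodes an interferon-induced chemokine that attracts T cells. It was at 31.8, 12.3 and 101 FPKM at 1 week, 249 and 246 FPKM at 2 weeks and 33.2, 90.7 and 154 FPKM at 6 weeks in induced wells, against 0 to 34.2 FPKM (median 0) in control wells. The highest control value belonged to the shallow well of CKp25 0 weeks mouse 3, and the next highest control well was at 1.47 FPKM. The difference was 5.65 ± 0.66 (SE) on the log2(FPKM + 1) scale with an adjusted p of 1.57e-05. Cxcl10 reached FPKM 1 in 4.62% of the other wells.

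Cxcl13, a chemokine that attracts B cells, was listed at 0 in all 11 control wells. In induced wells it was at 0, 0.33 and 0 FPKM at 1 week, 30.5 and 32.7 FPKM at 2 weeks and 199, 17.8 and 53.9 FPKM at 6 weeks. The 5 wells at 2 and 6 weeks stood above every other well, and the wells at 1 week did not separate from controls. The week-by-week differences from control wells were 0.14 ± 0.41 (adjusted p = 0.924) at 1 week, 5.03 ± 0.48 (adjusted p = 2.94e-07) at 2 weeks and 5.88 ± 0.41 (adjusted p = 8.71e-10) at 6 weeks, in 1 fit of all wells. Apoc1, which encodes an apolipoprotein of lipoprotein particles, was also listed at 0 in every control well. It was at 1.99, 0 and 0 FPKM at 1 week, 6.64 and 13.4 FPKM at 2 weeks and 12.2, 20.6 and 10.5 FPKM at 6 weeks. Baiap2l2, which encodes a protein that binds curved membranes, was listed at 0 in all control wells too, and at 0 to 7.66 FPKM in induced wells (median 1.34). Cav1, a caveolar coat protein gene, was listed at 0 in all induced wells and at 0 to 4.84 FPKM in control wells (median 1.41). Baiap2l2 and Cav1 were chosen after their values were seen. Genes under FPKM 1 in every control well, among the named ones Cxcl13, Apoc1, Cd69, H2-Q8, Ass1, Hpse, Gpnmb, Bhlhe40 and Baiap2l2, passed the filter on low values through induced wells alone, and Ptger3 and Cav1 passed it through control wells alone, so some difference is built into their selection.

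Cd69, an early activation antigen of leukocytes, was at 0.357, 1.59 and 0 FPKM at 1 week, 46.1 and 16.5 FPKM at 2 weeks and 12.5, 2.95 and 22.5 FPKM at 6 weeks, against 0 to 0.287 FPKM in control wells. All wells at 2 and 6 weeks lay above the control wells, and the adjusted p was 3.30e-07 at 2 weeks and 2.06e-06 at 6 weeks. Fabp3, a fatty acid binding protein gene, was at 1.39 to 59.8 FPKM in induced wells (median 14.3) and at 0 to 3.31 FPKM in control wells (median 0.894), a difference of 2.86 ± 0.49 (adjusted p = 0.000397). Actr3b, a relative of an actin-branching complex subunit, was at 0 to 18.8 FPKM in induced wells (median 7.74) and at 0 to 1.17 FPKM in control wells (median 0; difference 2.57 ± 0.44, adjusted p = 0.000397). Ass1, the argininosuccinate synthase gene of arginine synthesis, did not overlap between the groups. It was at 0.899 to 21.8 FPKM in induced wells (median 5.95) and at 0 to 0.868 FPKM in control wells (median 0.246), and differed by 2.50 ± 0.37 (adjusted p = 8.78e-05).

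Lgals3, which encodes the sugar-binding galectin-3, overlapped between the groups. It was at 5.16 to 107 FPKM in induced wells (median 35.1) and at 0 to 20.2 FPKM in control wells (median 1.10; difference 3.33 ± 0.73, adjusted p = 0.00482), and the adjusted p was 0.0647 against CK wells of the same week alone. Crip1, a small LIM-domain protein gene, differed by 2.47 ± 0.59 (adjusted p = 0.00738), with 1 control well at 26.7 FPKM, and its highest adjusted p over the settings tried was 0.106. H2-Q8, an MHC class I gene, was at 58.9 FPKM or more in all 5 induced wells at 2 and 6 weeks and at most 0.0383 FPKM in control wells. H2-Q8, H2-Q7 and H2-Q6 are near-identical copies, so how reads were split between them is uncertain. The calls of Plac8 and Ccnb2 in all induced wells together were weak: Plac8 had an adjusted p of 0.0466 and lost its call in 15 of the 19 fits with 1 well left out, and Ccnb2 had 0.0454 and lost it in 15 as well.

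**Figure D2:**
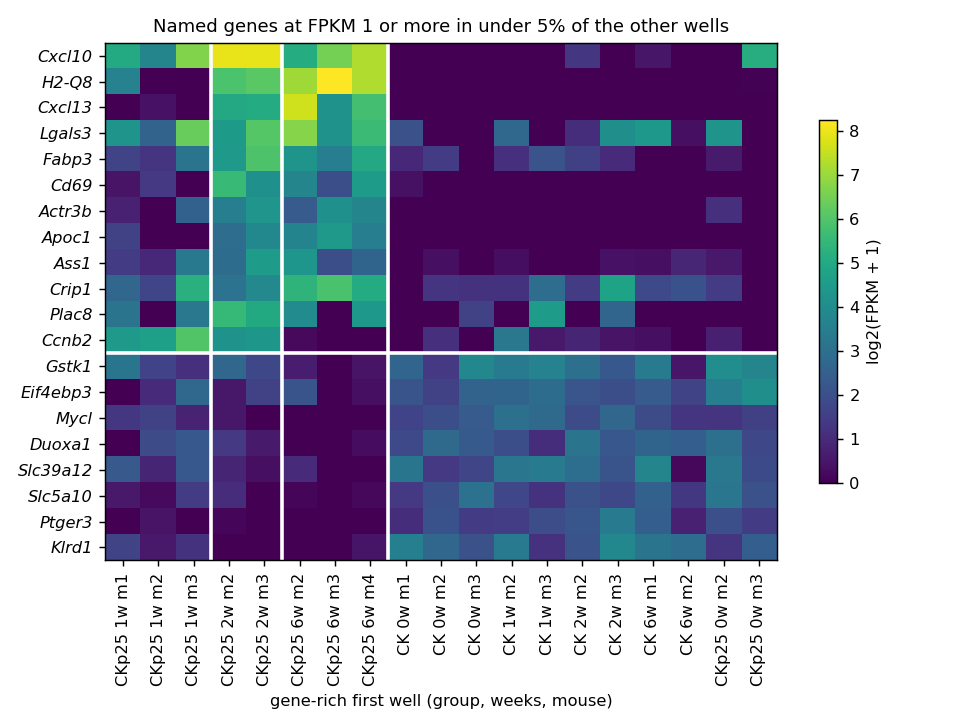
log2(FPKM + 1) of the 20 rarely detected genes with the largest called differences (12 higher, 8 lower in induced wells) in each of the 19 gene-rich wells, induced wells to the left. Cxcl13 and Apoc1 are at 0 in all 11 control wells, and Ccnb2 is at most 0.163 FPKM in the 3 wells at 6 weeks.

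The rarely detected genes that were lower in induced wells included receptors and transporters at a few FPKM. Klrd1, which encodes the CD94 receptor known from natural killer cells, was at 0 to 2.24 FPKM in induced wells (median 0.19) and at 1.25 to 13.5 FPKM in control wells (median 5.67), and differed by -2.12 ± 0.35 (adjusted p = 0.000275). The prostaglandin E2 receptor gene Ptger3 was at 0 in 6 of 8 induced wells and at most 0.356 FPKM in the other 2, and between 0.688 and 9.32 FPKM in control wells (median 2.84). Its groups did not overlap, and it fell by 1.78 ± 0.27 on the log2 scale (adjusted p = 0.000111). Mycl, a transcription factor gene of the MYC family, was at 0 in 4 of 8 induced wells, among them all 3 at 6 weeks, and at 1.34 to 7.16 FPKM in every control well (difference -1.50 ± 0.30, adjusted p = 0.00153). The sodium-coupled sugar transporter gene Slc5a10 fell by 1.58 ± 0.29 (adjusted p = 0.000765). The zinc transporter gene Slc39a12 fell by 1.51 ± 0.43 (adjusted p = 0.0208), and its call was lost with genes per well as a covariate. Duoxa1, a maturation factor gene of dual oxidase, fell by 1.51 ± 0.34 (adjusted p = 0.00393). Eif4ebp3, a repressor gene of translation initiation, fell by 1.48 ± 0.38 (adjusted p = 0.0108). Gstk1, a glutathione transferase gene, fell by 1.45 ± 0.46 (adjusted p = 0.0397) and lost its call in 14 of the 19 fits without 1 well. With the 6 wells below the gene limit added, each of these calls was lost except those of Klrd1 and Ptger3.

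**Figure D3:**
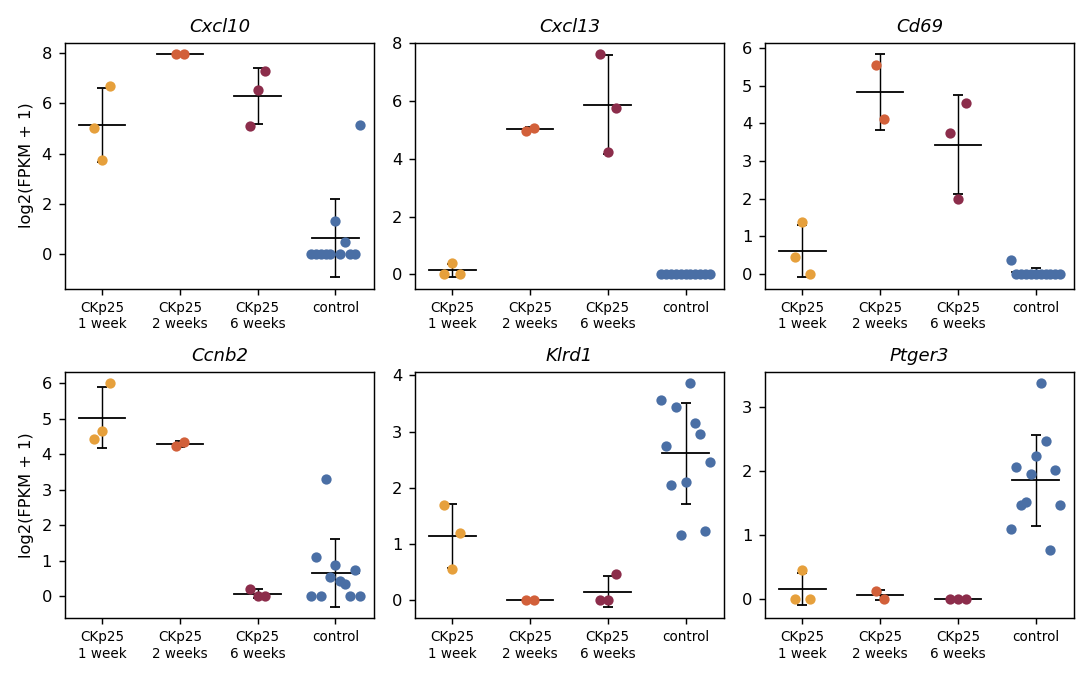
log2(FPKM + 1) of 6 rarely detected genes in every gene-rich well, by group. Points are wells, horizontal bars are means and error bars are SD (3, 2, 3 and 11 wells). Cxcl13 and Cd69 are high at 2 and 6 weeks, Ccnb2 at 1 and 2 weeks, and Ptger3 in every induced well lies below all control wells, while Klrd1 overlaps at 1 week.

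The weeks differed in which genes moved. Compared with control wells, wells at 1 week had 344 higher (3.01%) and 49 lower genes (0.428%), wells at 2 weeks 444 higher (3.88%) and 354 lower genes (3.09%), and wells at 6 weeks 430 higher (3.76%) and 1954 lower genes (17.1%). The median difference of all tested genes was 0.04 at 1 week, -0.24 at 2 weeks and -0.46 at 6 weeks. The count of lower genes at 6 weeks rested on 1 shallow well, since 625 genes were lower without CKp25 6 weeks mouse 3. Without CKp25 1 week mouse 3, 184 genes were higher at 1 week. At 2 weeks 132 were higher and 33 lower without mouse 3, and 215 and 92 without mouse 2, where 1 well is then assumed to vary like the other groups. Against the 2 CK wells of the same week alone, 38 genes were higher and 2 lower at 1 week, 174 and 56 at 2 weeks, and 149 and 404 at 6 weeks. Among rarely detected genes, 122 were higher and 5 lower at 1 week, 107 and 12 at 2 weeks, and 88 and 130 at 6 weeks. The 3 comparisons share their control wells.

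At 1 week the 6 largest rises among rarely detected genes were those of Cxcl10 (4.52 ± 0.86, adjusted p = 0.00338) and of 5 genes of cell division. The 1-week call of Cxcl10 was lost without CKp25 1 week mouse 3 and against CK wells of the same week. Ccnb2, a mitotic cyclin gene, was at 20.4, 24.2 and 63.2 FPKM at 1 week, 17.9 and 19.5 FPKM at 2 weeks and 0.163, 0 and 0 FPKM at 6 weeks, against 0 to 8.91 FPKM (median 0.358) in control wells. The wells at 1 and 2 weeks lay above all control wells, and those at 6 weeks among the lowest. The difference was 4.36 ± 0.50 at 1 week (adjusted p = 1.10e-05), 3.63 ± 0.59 at 2 weeks (adjusted p = 0.000243) and -0.60 ± 0.50 at 6 weeks (adjusted p = 0.399). Rrm2, the small subunit gene of ribonucleotide reductase, was at 25.5, 33.5 and 19.1 FPKM at 1 week, 11.7 and 15.0 FPKM at 2 weeks and 0 FPKM in all 3 wells at 6 weeks, against 0 to 5.44 FPKM (median 0) in control wells. Ccnb1 (3.98 ± 0.41, adjusted p = 6.13e-06), Cdca3 (3.91 ± 0.47, adjusted p = 1.59e-05) and Cdca8 (3.71 ± 0.45, adjusted p = 1.60e-05), which act in entry into and passage through mitosis, were higher at 1 week. Between weeks, 6 minus 2 weeks, Ccnb2 fell by 4.22 (limma adjusted p = 0.00937) and Rrm2 by 3.84 (limma adjusted p = 0.00937). Cdca8 fell by 3.23 (limma adjusted p = 0.032) and Ccnb1 by 2.78 (limma adjusted p = 0.0469). These changes rest on only 2 wells at 2 weeks. With a pseudocount of 0.1, 1 gene in place of 18 was called between 2 and 6 weeks.

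Of 43 genes listed for mitosis, all of them tested and 29 of them rarely detected, 38 were higher at 1 week, 23 at 2 weeks and 0 at 6 weeks, where 2 were lower. Their median difference was 2.30, 1.48 and -0.28 at 1, 2 and 6 weeks. Among all tested genes 3.01%, 3.88% and 3.76% were higher at these weeks, and 17.1% lower at 6 weeks. Among all rarely detected tested genes 5.63% were higher at 1 week. Against CK wells of the same week alone, 38 of all 11439 tested genes were higher at 1 week. How many of those were mitosis genes was not counted. Of the 29 rarely detected members 28 were higher at 1 week, which makes mitosis genes 28 of the 122 rarely detected genes called there. Of 35 tested DNA replication genes 24 were higher at 1 week, 6 at 2 weeks and 0 at 6 weeks, where 4 were lower, with medians of 1.86, 0.88 and -0.56. Mki67, the Ki-67 proliferation marker gene, was at 7.29, 14.3 and 10.5 FPKM at 1 week, 2.09 and 4.24 FPKM at 2 weeks and 0 FPKM in the 3 wells at 6 weeks, against 0 to 3.18 FPKM (median 0.168) in control wells. Every well at 1 week lay above all control wells. Of 23 tested p53 targets and cell cycle inhibitors 1 was higher and 1 lower at 1 week. As 3.01% of all tested genes were higher and 0.428% lower at 1 week, counts of 1 say little about this list. The higher one was Cdkn1a, the p21 inhibitor gene (2.57 ± 0.63, limma adjusted p = 0.024). The lower one was Sesn1, a stress-induced sestrin gene (-0.91 ± 0.25, limma adjusted p = 0.0373).

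Beside Ptger3, the named rarely detected genes that were lower at 1 week were Rab19, a GTPase gene of membrane traffic (-1.63 ± 0.44, adjusted p = 0.038), Pik3ip1, an inhibitor gene of PI3 kinase (-1.56 ± 0.38, adjusted p = 0.0172), and the MHC class II peptide-loading gene H2-DMb2 (-1.55 ± 0.42, adjusted p = 0.0411). Against CK wells of the same week neither these 3 genes nor Ptger3 was called. At 2 weeks the GTPase gene Gimap9 (-2.16 ± 0.45, adjusted p = 0.00332), Tmem17 (-2.01 ± 0.60, adjusted p = 0.0417) and the Wnt acyltransferase gene Porcn (-1.97 ± 0.53, adjusted p = 0.0217) were lower, beside Klrd1. The calls of Gimap9, Tmem17, Porcn and Klrd1 at 2 weeks were each lost without CKp25 2 weeks mouse 3, and those of Tmem17, Porcn and Klrd1 also without mouse 2. That of Tmem17 was lost in 10 of the fits without 1 well. At 6 weeks the mitochondrial protein gene Chchd6 (-2.61 ± 0.49, adjusted p = 0.000749) and the annexin-binding gene S100a10 (-2.28 ± 0.54, adjusted p = 0.005) were lower, beside Klrd1 and Gstk1. The 6-week calls of Chchd6 and Gstk1 were lost against CK wells of the same week, and that of S100a10 with genes per well as a covariate.

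Genes of the type I interferon response were higher at 2 and 6 weeks. Of 38 listed genes, all tested, 3 were higher at 1 week, 31 at 2 weeks and 32 at 6 weeks, none was called lower, and the median difference was 0.11, 3.07 and 2.48. Among all tested genes 3.01%, 3.88% and 3.76% were higher at these weeks. In all induced wells together 25 of the 38 were higher, with a median of 1.76, where 4.79% of all tested genes were higher and 8.87% lower. At 2 weeks 19 of the 38 were higher than at 1 week, among 94 genes (0.822%) called higher and 12 (0.105%) called lower in that comparison (0.927% in all), and none of the 38 was called between 2 and 6 weeks. The 3 called at 1 week were Cxcl10, Ifi27l2a and Usp18, a protease gene that removes the interferon-induced modifier ISG15. Usp18 was at 11.95, 2.46 and 6.58 FPKM at 1 week, 55.2 and 105 FPKM at 2 weeks and 71.9, 29.2 and 95.3 FPKM at 6 weeks, against 0 to 5.48 FPKM (median 0.921) in control wells. Rsad2, the antiviral viperin gene, was at 2.14, 0 and 0.908 FPKM at 1 week, 39.3 and 39.8 FPKM at 2 weeks and 19.7, 9.12 and 46.2 FPKM at 6 weeks, against 0 to 1.23 FPKM in control wells. Its values at 2 and 6 weeks all lay above the control wells, and it rose by 4.48 from 1 to 2 weeks (adjusted p = 5.67e-05). The rarely detected Cmpk2, a mitochondrial nucleotide kinase gene, rose by 3.02 between these weeks (adjusted p = 0.00855). Of 16 listed interferon genes and their receptor genes 11, which include all the listed genes of the ligands, did not pass the filter in these wells, and of the 5 tested 1 was called, Ifngr1 of the interferon gamma receptor, which was lower (-0.89 ± 0.21, adjusted p = 0.00711).

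Promoter windows are shown for 2 genes of each of these lists, so that the letters of interferon genes can be read beside those of mitosis genes. They are from RefSeq on the build GRCm38.p6, from 250 bases before to 50 bases after the start of the gene, 5′ to 3′ on the strand of the gene. The window of Cxcl10 is chr5:92348840-92349139 on the minus strand, that of Rsad2 is chr12:26456403-26456702 on the minus strand, that of Ccnb2 is chr9:70421505-70421804 on the minus strand and that of Cdca8 is chr4:124936868-124937167 on the minus strand. Capitals mark a pair of GAAA with any 2 bases between them, the core of an interferon-stimulated response element, in the first 2 windows, and TTTGAA, the core of a cell cycle homology region, and CCAAT in the last 2, each on either strand. Where TTTGAA and CCAAT are adjoined or share bases, they form 1 run of capitals.
Cxcl10: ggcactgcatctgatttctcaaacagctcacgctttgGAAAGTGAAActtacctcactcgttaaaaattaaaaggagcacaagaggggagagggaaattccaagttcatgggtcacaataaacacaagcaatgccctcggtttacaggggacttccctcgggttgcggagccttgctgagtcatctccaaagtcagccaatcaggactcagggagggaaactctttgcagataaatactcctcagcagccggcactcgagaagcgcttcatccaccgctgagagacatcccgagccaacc
Rsad2: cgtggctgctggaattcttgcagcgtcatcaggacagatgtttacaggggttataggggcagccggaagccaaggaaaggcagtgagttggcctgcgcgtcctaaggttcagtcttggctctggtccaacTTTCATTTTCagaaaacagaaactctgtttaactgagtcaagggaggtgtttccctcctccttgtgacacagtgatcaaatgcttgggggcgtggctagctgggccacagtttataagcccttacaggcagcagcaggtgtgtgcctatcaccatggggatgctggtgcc
Ccnb2: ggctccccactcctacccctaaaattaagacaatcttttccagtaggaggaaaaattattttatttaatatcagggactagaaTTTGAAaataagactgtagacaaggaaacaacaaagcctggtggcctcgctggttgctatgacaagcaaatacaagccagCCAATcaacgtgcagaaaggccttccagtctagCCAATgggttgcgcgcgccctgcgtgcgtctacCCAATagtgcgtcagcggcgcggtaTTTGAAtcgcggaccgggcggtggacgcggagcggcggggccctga
Cdca8: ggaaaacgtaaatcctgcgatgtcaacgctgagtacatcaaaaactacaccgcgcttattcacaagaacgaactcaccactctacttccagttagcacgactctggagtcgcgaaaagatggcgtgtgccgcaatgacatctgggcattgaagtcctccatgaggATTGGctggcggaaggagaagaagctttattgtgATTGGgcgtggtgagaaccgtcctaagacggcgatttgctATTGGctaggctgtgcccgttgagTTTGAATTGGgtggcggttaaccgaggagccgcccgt

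The GAAA pair was found on either strand in 17 of 28 interferon response genes with a window (60.7%), in 3 of 36 mitosis genes (8.33%), in 3.70% of the 8647 tested genes with a window and in 3.99% of all 27025 genes with one. TTTGAA was found in 26 of 36 mitosis genes (72.2%), in 6 of 28 interferon response genes (21.4%), in 14.5% of tested genes and in 20.2% of all genes. CCAAT was found in 25 of 36 mitosis genes (69.4%), in 11 of 28 interferon response genes (39.3%) and in 43.3% of tested genes. Among genes called higher than in control wells, the GAAA pair was in 4.55% of those of 1 week, 12.46% of those of 2 weeks and 12.96% of those of 6 weeks. TTTGAA was in 26.1%, 20.6% and 13.95% of the same genes. Among genes called lower, the GAAA pair was in 10.8% at 1 week (4 of 37 genes with a window), in 2.90% at 2 weeks and in 2.55% at 6 weeks, and TTTGAA in 16.2%, 17.4% and 14.6%. A match is a stretch of letters and not a measured site, and TTTGAA and the GAAA pair can share bases.

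**Figure D4:**
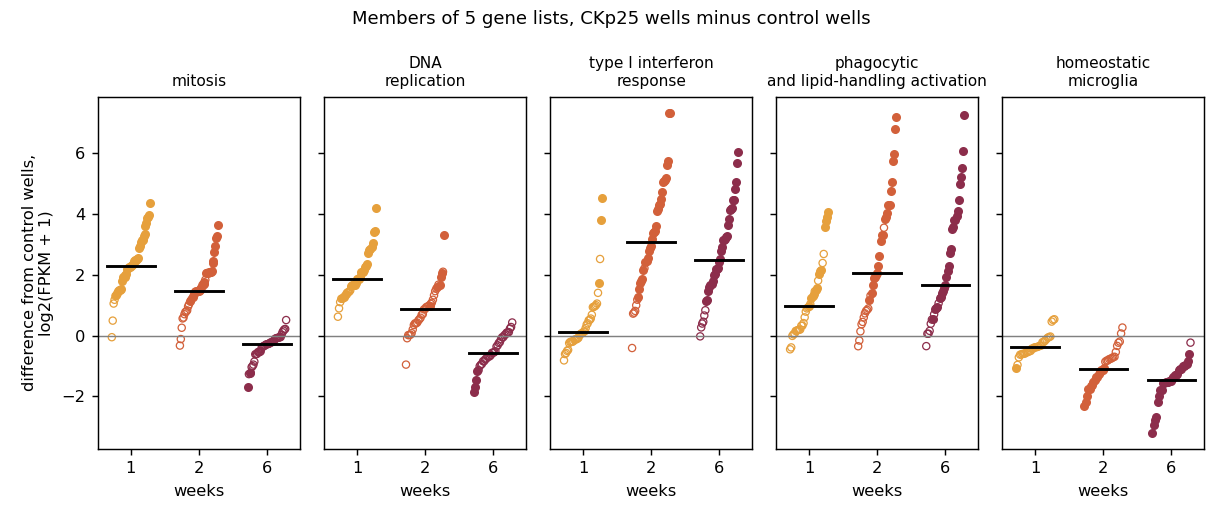
Difference from the control wells on the log2(FPKM + 1) scale of each tested member of 5 gene lists at 1, 2 and 6 weeks. Each point is a gene, filled where its limma adjusted p is under 0.05, sorted by value within a week, and black bars are medians. Medians of the mitosis list are 2.30, 1.48 and -0.28, and those of the interferon list 0.11, 3.07 and 2.48.

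At 6 weeks the rarely detected genes with the largest rises were H2-Q8, Cxcl13, Cxcl10, Hpse, Apoc1 and Lgals3. Hpse, which encodes the heparan sulfate cleaving enzyme heparanase, was at 0.887, 0 and 0 FPKM at 1 week, 3.40 and 5.31 FPKM at 2 weeks and 15.6, 9.96 and 25.9 FPKM at 6 weeks, against 0 to 0.594 FPKM in control wells. It rose by 2.09 from 1 to 2 weeks (adjusted p = 0.0092) and differed by 1.69 between 2 and 6 weeks (adjusted p = 0.0994). Gpnmb, a glycoprotein gene of phagocytes with a heavy lysosomal load, was at 35.7, 2.27 and 17.4 FPKM at 6 weeks, and at most 1.17 FPKM in the induced wells at 1 and 2 weeks and at most 0.673 FPKM in control wells. It was the single gene called higher at 6 than at 2 weeks (0.00874% of tested genes), by 3.11 (adjusted p = 0.0323), while 17 (0.149%) were called lower (0.157% in all). The comparison of 6 with 2 weeks rests on only 2 wells at 2 weeks. With a pseudocount of 0.1, 1 gene in place of 18 was called in it. Gpnmb and the proliferation marker Mki67 were chosen after their values were seen. No control well reached FPKM 1 for Gpnmb. It passed the filter on low values through induced wells alone, among them all 3 at 6 weeks, so some difference is built into its selection.

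Many genes of phagocytic and lipid-handling activation passed the test as higher in induced wells. Of 35 tested members 25 were higher in all induced wells together and none lower (median 1.61). At 1 week 13 were higher, at 2 weeks 23 and at 6 weeks 27. Among all tested genes 4.79% were higher in all induced wells together, and 3.01%, 3.88% and 3.76% at these weeks. Cst7, a cysteine protease inhibitor gene, was at 76.3, 75.4 and 207 FPKM at 1 week, 810.1 and 1303 FPKM at 2 weeks and 742, 287 and 521 FPKM at 6 weeks, against 0 to 20.8 FPKM (median 8.11) in control wells. Lpl, the lipoprotein lipase gene, was at 24.4 to 106 FPKM in induced wells (median 48.6) and 1.39 to 9.49 FPKM in control wells (median 2.91; difference 3.79 ± 0.30, adjusted p = 2.56e-08). Neither gene overlapped between the groups, and Lpl differed by 3.57, 3.89 and 3.94 at 1, 2 and 6 weeks. Apoe, the main apolipoprotein of the brain, was at 455, 474 and 1334 FPKM at 1 week, 15959.8 and 19504 FPKM at 2 weeks and 43204, 39354 and 41539.8 FPKM at 6 weeks, against 199 to 2239 FPKM (median 934) in control wells. Its wells at 1 week lay among the control wells, and it rose by 4.74 from 1 to 2 weeks (adjusted p = 0.00358). Spp1, the osteopontin gene, differed by 5.84 ± 0.82 in all induced wells together (adjusted p = 0.000154).

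Homeostatic genes were lower in induced wells, and more of them passed the test at the later weeks. Of 30 tested members 23 were lower in all induced wells together (median -0.90, against -0.22 for all tested genes), with 1 lower at 1 week, 16 at 2 weeks and 29 at 6 weeks. Among all tested genes 8.87% were lower in all induced wells together, and 0.428%, 3.09% and 17.1% at 1, 2 and 6 weeks. The list medians were -0.38, -1.10 and -1.45, against 0.04, -0.24 and -0.46 for all tested genes. Without the shallow well of CKp25 6 weeks mouse 3, 625 in place of 1954 of all tested genes were lower at 6 weeks. How many of the 30 kept their call there was not counted. Between weeks 2 of the 30 were called lower at 2 than at 1 week and 1 lower at 6 than at 2 weeks. P2ry12 was at 1644, 1164 and 1333 FPKM at 1 week, 693 and 480.2 FPKM at 2 weeks and 410.2, 356 and 359 FPKM at 6 weeks, and at 1981 to 3684 FPKM (median 3131) in control wells. Every induced well lay below every control well (difference -2.09 ± 0.26, adjusted p = 1.84e-05).

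Chemokine genes were higher. Of 16 tested members, 8 of them rarely detected, 10 were higher and none lower in all induced wells together (median 1.63). At 1 week 7 were higher, at 2 weeks 11 and at 6 weeks 9. Among all tested genes 4.79% were higher in all induced wells together, and 3.01%, 3.88% and 3.76% at these weeks. Ccl3, Ccl4 and Ccl12, whose products attract monocytes and other leukocytes, did not overlap between the groups. Ccl3 was at 469 to 1803 FPKM in induced wells (median 987) and 76.0 to 412 FPKM in control wells (median 188). Ccl4 was at 1036 to 3085 FPKM in induced wells (median 1709) and 107 to 703 FPKM in control wells (median 444). Ccl5 was at 20.2, 4.49 and 0 FPKM at 1 week, and at 454 to 763 FPKM in the 5 wells at 2 and 6 weeks, against 0 to 18.7 FPKM (median 2.96) in control wells, and it rose by 6.84 from 1 to 2 weeks (adjusted p = 0.00875). The neutrophil chemokine gene Cxcl2, which reached FPKM 1 in 0.729% of the other wells, was at 0 to 14.3 FPKM in induced wells (median 2.81) and 0 to 2.40 FPKM in control wells (median 0; difference 1.45 ± 0.40, adjusted p = 0.0189). The call of Cxcl2 was lost against CK wells of the same week and with all 25 first wells. Its highest limma adjusted p over the settings tried was 0.146.

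Of 20 tested cytokine genes 7 were higher and 1 lower in all induced wells together. There 4.79% of all tested genes were higher and 8.87% lower, so the lower count is not above that share. Il1b was at 11.9 to 111 FPKM in induced wells (median 45.8) and 0 to 15.9 FPKM in control wells (median 6.13; difference 2.90 ± 0.46, adjusted p = 0.000228). Tnf was at 166, 117 and 137 FPKM at 1 week, 127 and 66.1 FPKM at 2 weeks and 40.9, 20.5 and 55.5 FPKM at 6 weeks, and at 2.18 to 37.8 FPKM (median 16.3) in control wells. Its difference was 3.28 ± 0.56 at 1 week (adjusted p = 0.000936) and 1.37 ± 0.56 at 6 weeks (adjusted p = 0.0842), and the change from 1 to 2 and from 2 to 6 weeks did not pass the threshold. Csf1, the growth factor gene of macrophages, differed by 2.66 ± 0.33 with no overlap (adjusted p = 1.33e-05). The interleukin gene Il16 was lower (-1.31 ± 0.19, adjusted p = 9.22e-05). Il10, Il12a, Il23a and 10 other listed cytokine genes did not pass the filter.

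Of 19 tested checkpoint and costimulatory genes 6 were higher and 2 lower in all induced wells together, where 4.79% of all tested genes were higher and 8.87% lower, so the lower count lies near the share of all genes. Pdcd1, which encodes the inhibitory receptor PD-1, was at 15.6 to 58.2 FPKM in induced wells (median 38.9) and 0.306 to 11.5 FPKM in control wells (median 3.82). Its groups did not overlap (difference 2.94 ± 0.33, adjusted p = 8.81e-06), and it differed by 2.59, 3.30 and 3.04 at 1, 2 and 6 weeks. The inhibitory receptor gene Cd300lf differed by 3.05 ± 0.37 (adjusted p = 1.20e-05) and the rarely detected Cd200r4, one of a family of similar receptors, by 1.67 ± 0.37 (adjusted p = 0.00398). The sialic acid receptor gene Siglece was lower (-1.41 ± 0.35, adjusted p = 0.0083).

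MHC class I presentation genes were higher in 8 of 18 cases in all induced wells together, with 0 called at 1 week and 10 at each of 2 and 6 weeks. Among all tested genes 4.79% were higher and 8.87% lower in all induced wells together. At 1, 2 and 6 weeks 3.01%, 3.88% and 3.76% were higher. Of 13 tested MHC class II genes 1 was called higher in all induced wells together, which is near that share. It was Cd74, the invariant chain gene. At 6 weeks 5 of the 13 were higher. The call of Cd74 in all induced wells (4.03 ± 1.16, limma adjusted p = 0.0296) was lost in 4 of the 19 fits without 1 well. The call was also lost under 6 of the 15 other settings, among them CK wells of the same week and genes per well as a covariate. Cd74 was at 16.8, 10.2 and 136 FPKM at 1 week and 70.1 and 304 FPKM at 2 weeks. At 6 weeks it was at 866, 844 and 3599 FPKM, against 0 to 169 FPKM (median 8.47) in control wells. The wells at 6 weeks lay above all others. Its difference at 6 weeks was 6.91 ± 1.32 (adjusted p = 0.00207). Of 16 tested nucleic acid sensor genes 4 were higher and 1 lower, and the lower count is not above the share of all tested genes. Among the higher ones was Zbp1, a sensor of Z-form nucleic acid (2.79 ± 0.73, limma adjusted p = 0.015).

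The next lists are to be read against the 4.79% of all tested genes that were higher and the 8.87% that were lower. Of 43 tested transcription factor genes 6 were higher and 10 lower. Bhlhe40, a repressor of the basic helix-loop-helix family, was at 0.335 to 21.1 FPKM in induced wells (median 5.78) and 0 to 0.515 FPKM in control wells (median 0; difference 2.56 ± 0.42, adjusted p = 0.000255). Maf fell by 1.40 ± 0.37 (adjusted p = 0.0145). Of 19 tested growth factors and matrix modifiers 5 were higher and none was lower, among them the rarely detected metalloprotease genes Adam8 (1.39 ± 0.24, adjusted p = 0.000462) and Mmp12 (1.96 ± 0.62, adjusted p = 0.0404). Mmp12 lost its call in 12 of the 19 fits without 1 well. Of 26 tested ion channels and purinergic receptors 3 were higher and 5 lower, of 23 tested p53 targets and cell cycle inhibitors 2 were higher and 1 lower, which for the last list is near the shares of all tested genes, and of 4 tested sex-linked genes 1 was lower, the histone demethylase gene Kdm5d, which lost its call in 9 of the 19 fits without 1 well.

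In 104 genes the induced and control wells did not overlap at all, 55 higher (0.481% of tested genes) and 49 lower (0.428%). The 12 higher ones named by the rule were Cst7, Ifi27l2a, Lpl, Hcar2, Ccl12, Pdcd1, Csf1, Ass1, Plaur, Ccl4, Cd52 and Ccl3, with differences between 2.21 and 5.55. Hcar2, a receptor gene for ketone bodies and niacin, was at 25.7 to 209 FPKM in induced wells (median 81.4) and 0 to 24.4 FPKM in control wells (median 6.56). Plaur, the urokinase receptor gene, was at 21.5 to 57.9 FPKM in induced wells (median 33.2) and 0.34 to 12.8 FPKM in control wells (median 5.39). Both were called in the 2-group fit (Hcar2 adjusted p = 0.000153, Plaur adjusted p = 3.32e-05). The 8 lower ones were Klhdc8b, P2ry12, Sema4b, Ppm1l, Sult1a1, Trp53cor1, Ptger3 and Tppp, with differences between -2.21 and -1.57. Sema4b, a semaphorin gene, was at 7.25, 4.27 and 9.01 FPKM at 1 week, 1.53 and 1.78 FPKM at 2 weeks and 0.356, 1.09 and 0.931 FPKM at 6 weeks, against 9.28 to 19.0 FPKM in control wells. Trp53cor1, a long noncoding RNA gene (lincRNA-p21), was at 0 to 2.23 FPKM in induced wells (median 1.03) and 2.92 to 10.4 FPKM in control wells (median 5.77).

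The same contrast was fitted to the other wells of the same mice, which the rule did not use, as 1 mean profile a mouse. Of the 117 rarely detected genes higher in the gene-rich wells, 115 were also above 0 in the other wells (98.3%, against 58.3% of all rarely detected tested genes) and 55 were called there, where 9.08% of all tested genes were called higher. Their median difference was 1.31 in the gene-rich wells and 0.21 in the other wells. Of the 77 lower genes 67 (87.0%) were also below 0 in the other wells and 8 were called, where 2.37% of all tested genes were called lower. Their median difference was -1.08 in the gene-rich wells and -0.07 in the other wells. No called gene was called in the opposite direction. The mice are the same in both fits, so this sets their other wells beside their first wells. Cxcl10 differed by 0.90 ± 0.20 (adjusted p = 0.00615) in the other wells, Cxcl13 by 0.29 ± 0.10 (adjusted p = 0.0657), Ass1 by 0.33 ± 0.13 (adjusted p = 0.107), Klrd1 by -0.18 ± 0.05 (adjusted p = 0.0194) and Ptger3 by -0.17 ± 0.05 (adjusted p = 0.0137). Among the 431 higher genes that are not rarely detected, 430 had the same sign and 362 were called in the other wells, with medians of 1.10 and 1.20. Of the 938 lower genes that are not rarely detected, 851 had the same sign and 218 were called, with medians of -0.87 and -0.30. Of all tested genes 58.0% lay above 0 in the other wells. Their median difference was 0.03 there, against -0.22 in the gene-rich wells. The median shift of the gene-rich wells was thus not seen in the other wells, and its cause was not tested.

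**Figure D5:**
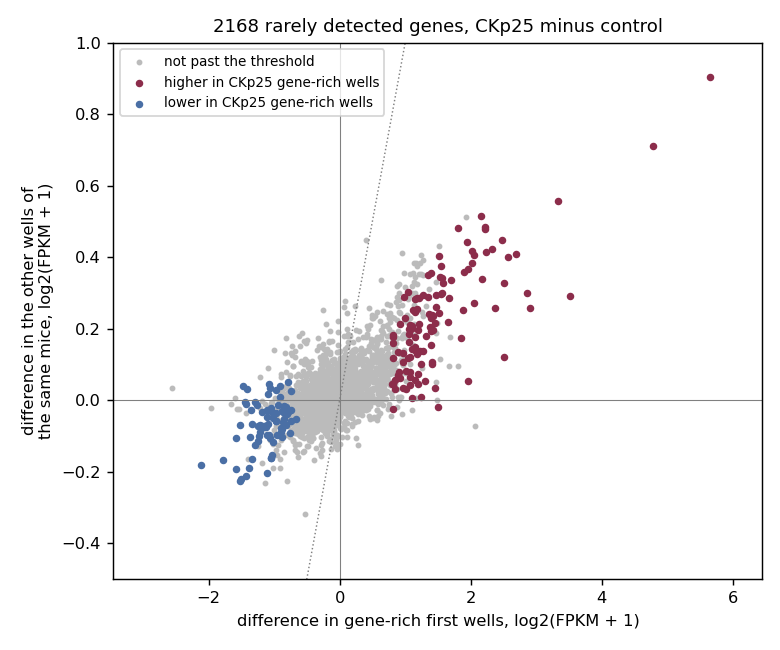
Difference, induced minus control, of the 2168 rarely detected tested genes in the gene-rich first wells (x axis) and in the mean profiles of the other wells of the same mice (y axis), both on the log2(FPKM + 1) scale. The dotted line marks equal values. Of the 117 genes called higher 115 lie above 0 on the y axis, at smaller values than on the x axis.

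Markers of microglia were present in every gene-rich well and lower in the induced ones. The 10 markers summed to 7918 to 21986 FPKM in induced wells (median 15868) and 15874 to 28621 FPKM in control wells (median 23532), which differed by -0.65 on the log2 scale (exact permutation test over wells, 2-sided, p = 0.00167, adjusted over 14 cell type lists p = 0.0233). Itgam, which encodes the sorting marker CD11b, was at 56.4 to 141 FPKM in induced wells and 114 to 194 FPKM in control wells (difference -0.62 ± 0.17, adjusted p = 0.015). For the other 13 cell types the adjusted p of the summed level was between 0.102 (endothelial cells, p = 0.0146 before adjustment) and 0.872 in the same exact permutation test. Of the 8 T or NK cell markers measured, 2 were at 0 in all induced and 1 in all control wells, and of the 7 neutrophil markers 3 were at 0 in all induced and 1 in all control wells. Astrocyte markers summed to 17.0 to 78.3 FPKM in induced and 25.6 to 67.9 FPKM in control wells, oligodendrocyte markers to 39.7 to 122 FPKM in induced and 47.9 to 166 FPKM in control wells, and monocyte markers to 0.42 to 55.6 FPKM in induced and 1.61 to 52.2 FPKM in control wells. Markers of border-associated macrophages had the log2 difference of largest size among the 14 lists (-1.39, exact permutation test p = 0.172, adjusted p = 0.399). They summed to 0.397 to 78.5 FPKM in induced wells (median 15.4) and 1.68 to 161 FPKM in control wells (median 39.4). B cell markers differed by -1.10 (exact permutation test p = 0.0391, adjusted p = 0.182). T or NK cell markers reached at most 3.94 FPKM in induced and 10.6 FPKM in control wells. Neutrophil markers reached at most 0.537 FPKM in induced and 69.6 FPKM in control wells, the last in CK 1 week mouse 2. Single markers passed the test while most of their lists did not. The astrocyte gene Gfap (1.84 ± 0.54, adjusted p = 0.025) and the monocyte gene Plac8 were higher, and the endothelial gene Pecam1 (-1.68 ± 0.41, adjusted p = 0.00791) and the dendritic cell gene Itgae (-1.12 ± 0.31, adjusted p = 0.0162) were lower. Of the tested markers, 1 of 5 was higher for astrocytes (list median 0.11) and 1 of 5 for monocytes (list median -0.38), and 1 of 3 was lower for endothelial cells (list median 0.25) and 1 of 4 for dendritic cells (list median -0.32). The call of Gfap was lost in 3 of the 19 fits without 1 well. Gfap was at 2.84, 0 and 0 FPKM at 1 week, 4.51 and 37.6 FPKM at 2 weeks and 2.90, 14.7 and 12.3 FPKM at 6 weeks, against 0 to 2.05 FPKM in control wells. The part of other cells in the values of induced wells was not tested.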

How the data were processed

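Hippocampal cells sorted by FACS into wells were sequenced by Smart-seq2. The authors deposited FPKM values per gene and well, made with Cufflinks 2.2 on mm9 per the submitters' processing notes; the name of the deposited table contains TopHat, an aligner, and the annotation and the use of strand are not given in the sources used here. Without strand, reads of overlapping genes cannot be told apart. All columns were assigned to wells (0 left unused). The members and gene lists were chosen with earlier results of these data known.

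Genes that reached FPKM 1 in 4 or more of the 19 wells were tested with limma 3.58.1 (R 4.3.3, trend and robust) on log2(FPKM + 1), in a fit of 2 groups and in a fit of control, 1, 2 and 6 weeks, with Benjamini-Hochberg adjustment over 11439 genes and a threshold of 0.05. Differences on this scale understate changes of low genes. The step was first tested on simulated data. Marker sums were compared by permutation over wells (Python 3.11.15, scipy 1.17.1). FPKM hold no counts, so absolute depth is unknown; relative depth came from the most frequent ratio of low values.

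Named genes are the 12 largest rises and 8 largest falls without overlap, the same numbers among rarely detected genes, the 6 largest rises and 4 largest falls of rarely detected genes at each week, called list members, markers, Cdk5r1, Cd74 and Itgam. Alternatives were pseudocounts, filters, scalings, covariates, control sets, gene limits, a replicate block and each well left out.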

Additional observations from a re-analysis of the deposited data

Results flagged for a closer look

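Among 53 values examined for a well far from the rest of its group, 3 had one, and chance gives about 1 in 20 groups. Among the 8 induced wells, the lowest number of genes was 8442 and the lowest log2 relative depth was -3.32, both in CKp25 6 weeks mouse 3. Ptger3 had its highest value in induced wells at 0.44 on the log2(FPKM + 1) scale, in CKp25 1 week mouse 2.

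Of 51 named genes tested between weeks with limma, 13 differed. Among all tested genes 0.927% were called between 1 and 2 weeks and 0.157% between 2 and 6 weeks. The named genes were chosen from the same fits for large differences, some of them at single weeks. A higher share among them is thus built in. The 51 leave out other genes called between weeks above, such as Rsad2 and Gpnmb. From 1 to 2 weeks, the difference (2 weeks minus 1 week) was 4.89 for Cxcl13, 4.80 for H2-Q8, 4.24 for Cd69, 3.13 for Fabp3, 2.86 for Apoc1, 2.82 for Actr3b, 2.09 for Hpse, 1.75 for Cd52 and -1.24 for P2ry12. From 2 to 6 weeks (6 weeks minus 2 weeks) it was -4.22 for Ccnb2, -3.84 for Rrm2, -3.23 for Cdca8 and -2.78 for Ccnb1.

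Well B1 of CKp25 0 weeks mouse 2, which is not a first well and was not compared, held 11886 genes. Its values correlated with those of the first well of that mouse with a Spearman rho of 0.934 across genes, and 80.1% of the genes were shared.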

How the results depend on the processing

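Of 219 called gene results, 163 kept their call with every well left out in turn and 60 under every setting tried. Adding the 6 gene-poor first wells (all 25) cost most calls: 79 genes were higher and 7 lower in all induced wells (rarely detected 19 and 2), 129 higher and 0 lower at 1 week, 47 higher and 1 lower at 2 weeks, 61 higher and 7 lower at 6 weeks, 4 differed between 1 and 2 weeks and 0 between 2 and 6 weeks, and Irf5 (0.13) and P2rx7 (0.40) changed sign. Against CK of the same week, 38 were higher and 2 lower at 1 week, 174 and 56 at 2 weeks, 149 and 404 at 6 weeks. With a pseudocount of 0.1, 72 rarely detected genes were higher, 229 genes were higher at 1 week, and 33 (1 to 2 weeks) and 1 (2 to 6 weeks) differed. With a pseudocount of 10, 1298 were lower at 6 weeks and 179 differed between 1 and 2 weeks. Without a filter, 613 were lower in all induced wells, 24 at 1 week and 1262 at 6 weeks, and 72 rarely detected genes were higher and 42 lower. With FPKM 1 reached in 10 wells or more, 33 rarely detected genes were higher, and 57 and 6 differed between weeks. After quantile normalization 181 rarely detected genes were higher and 50 lower, 221 were lower at 1 week, 676 higher and 701 lower at 6 weeks, and 162 and 28 differed between weeks. After rescaling without Rn45s and small RNA genes, 2802 were lower in all induced wells (184 rarely detected), and 206, 1685 and 3803 at 1, 2 and 6 weeks. It left 225 and 11 differing between weeks. With genes per well as a covariate, 641 were lower (43 rarely detected), 74 at 1 week and 640 at 6 weeks. With over 9500 genes required, 75 were lower at 1 week, 625 at 6 weeks and 7 differed between 2 and 6 weeks. Without the 2 shallow wells (chosen after seeing the data, like leaving out CKp25 0 weeks mouse 2), 88 were lower at 1 week, 690 at 6 weeks and 9 differed between 2 and 6 weeks. With rarely detected set at under 2% of wells 47 were higher and 16 lower, and at under 10% 184 and 198. With a well left out in turn, counts ranged from 384 to 687 higher and 703 to 1701 lower in all induced wells (rarely detected 66 to 166 and 52 to 114), 184 to 448 higher and 17 to 75 lower at 1 week, 132 to 506 higher and 33 to 452 lower at 2 weeks, 340 to 458 higher and 625 to 2148 lower at 6 weeks, and 26 to 140 and 0 to 34 between weeks. The cause of these changes was not tested.

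Mouse numbers are shared between CKp25 and CK groups. Same-numbered wells of a week deviated together with correlations of -0.05 to 0.11. These values come from 2 or 3 wells a group, too few to show whether same-numbered wells share more than a number. With a replicate block, 461 genes were higher and 606 lower in all induced wells (rarely detected 105 and 45), and 6 differed between 2 and 6 weeks.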
